A study of Mus musculus with 16 samples.

Results

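AP-1 is a family of transcription factors that bind DNA as pairs of leucine zipper proteins, and 10 of its genes were followed here among the 55487 genes of a count table of mouse macrophages. The genes were taken by name, as members of the family, with earlier results of these data known. They are the Fos genes Fos, Fosb, Fosl1 and Fosl2, the Jun genes Jun, Junb and Jund, and the related genes Atf3, Batf and Batf3. All 10 were among the 12372 genes tested.

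The data are RNA-sequencing counts of 16 samples of bone marrow-derived macrophages (BMDMs), grown from the marrow of wild-type BALB/c mice aged 8 weeks. The labels form 6 groups. BMDMs in DMEM, the culture medium without tumor factors, gave 2 samples (replicates 1 and 2), and BMDMs in DMEM with ruxolitinib (Rux), an inhibitor of the kinases JAK1 and JAK2, gave 3. BMDMs in conditioned medium (CM) of 4T1 cells, a mouse mammary tumor line, gave 3. CM with Rux gave 3 samples with a label of 4 h and 2 samples (replicates 2 and 3) with a label of 2 h. CM with Rux and IKK-16, an inhibitor of the IKK kinases that activate NF-κB, gave 3. The methods of the study state that cells were starved of serum before CM, that 0.5 μM Rux was added during this step and 0.8 μM IKK-16 together with the CM, and that RNA was taken after 4 h. What the 2 h of the label counts from is not stated, and the labels give no time for the other groups and no dose of Rux in DMEM. No transgene or deletion is carried by any group, and the labels do not say whether the replicates came from separate mice or cultures, so p-values measure the spread between these samples, which may be technical.

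Fos proteins cannot pair with each other and bind DNA together with a Jun protein, while Jun proteins can also pair among themselves. ATF3, BATF and BATF3 share the leucine zipper and pair with Jun proteins, and the BATF proteins lack an activation domain of their own and act with IRF4 or IRF8 at composite sites. In macrophages, AP-1 genes such as Fos and Junb are known as immediate early genes, whose message rises soon after a stimulus through MAP kinases without new protein synthesis, and AP-1 works beside NF-κB and PU.1 at inflammatory genes.

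Fos and Fosb, close relatives, moved in opposite directions between the samples labelled 2 h and 4 h (values further on), and the 250 bases before their RefSeq starts are printed here for that reason. RefSeq gave such a stretch for 9 of the 10 genes (GRCm38.p6). Fosl1 had none in the table used. The Fos stretch is chr12:85473640-85473889 on the plus strand and the Fosb stretch is chr7:19310046-19310295 on the minus strand. Both are written 5′ to 3′ in the direction of the gene, with matches to the searched motifs in capitals.
Fos: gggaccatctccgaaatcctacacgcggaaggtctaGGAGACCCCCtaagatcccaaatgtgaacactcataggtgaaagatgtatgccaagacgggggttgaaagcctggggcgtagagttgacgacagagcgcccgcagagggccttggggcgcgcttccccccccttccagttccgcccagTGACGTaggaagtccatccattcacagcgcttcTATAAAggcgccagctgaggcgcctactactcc
Fosb: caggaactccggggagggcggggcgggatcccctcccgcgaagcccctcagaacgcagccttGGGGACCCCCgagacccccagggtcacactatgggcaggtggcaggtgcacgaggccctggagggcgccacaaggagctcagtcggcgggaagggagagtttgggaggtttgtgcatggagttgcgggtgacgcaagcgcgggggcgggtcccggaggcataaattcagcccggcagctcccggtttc

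Motifs were searched on both strands, and overlapping matches were kept. In the Fos stretch the first capitals are a match to a κB site, 214 to 205 bases before the start. The second are TGACGT, the core of a CRE, 66 to 61 bases before the start, and the third are TATAAA, 33 to 28 bases before it. In the Fosb stretch the capitals are a match to a κB site 188 to 179 bases before the start, and no other motif matched. Fosl2 had 2 overlapping κB matches. TGACGT was also found in Atf3 and Batf, so in 3 of 9 members, against 6.47% of 32851 promoter windows of the same length. The κB site was found in 3 of 9 members (Fos, Fosb and Fosl2), against 3.9% of windows. TATAAA was found in Fos (12.4% of windows) and TTCNNNGAA, the form of STAT sites, in Batf3 (7.02%). The AP-1 motif TGANTCA (6.75%) and the CArG box (1.47%) were found in none of the 9 windows. Sequence outside these windows was not searched, so this absence does not show that a gene lacks either motif further from its start. A match describes the letters of the window and does not show that a factor binds there.

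Levels are given as CPM, the counts of a gene per unit of sequencing depth, after scaling by relative log expression (RLE), which sets the median gene of each sample to a common level. Differences were tested by quasi-likelihood in edgeR, and a gene counted as called, higher or lower, where its adjusted p was under 0.05 and its log2 fold change was over 0.5 in size. Between 18449388 and 46215853 fragments were counted per sample. All 8 macrophage markers were above 1 CPM, with a summed level of 40110 to 57130 CPM. The summed levels of the other marker lists were at most 1.45 CPM for epithelial cells (0 of 6 genes above 1 CPM, Krt5 and Krt14 at 0), 3.24 for neutrophils (1 of 7, Ly6g at 0), 13.1 for T and NK cells (1 of 6, Cd8a and Ncr1 at 0), 1.23 for B cells (1 of 4), 12.7 for dendritic cells (1 of 5) and 20.4 for fibroblasts (3 of 4). Against scaling by total counts, RLE raised the median of all genes by 0.31 on the log2 scale in CM against DMEM, by 0.30 and 0.37 in the Rux groups labelled 4 h and 2 h against DMEM + Rux, and by -0.11 for both inhibitors together against CM. Changes are relative to the median gene.

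Tumor CM changed most of the family. In CM against DMEM, 8 of the 10 genes were called higher, where 20.9% of all genes tested were, and 1 was called lower, where 24.1% were. The median log2 fold change of the 10 genes was 2.34, beside -0.0050 over all genes. In each of the 10 genes the CM samples did not overlap the DMEM samples, as in 74.8% of all genes. In bulk RNA, a change in the number of cells that express a gene and a change of message per cell cannot be told apart.

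Fosl2 (ENSMUSG00000029135, chromosome 5 from 32135801 to 32157842 of GRCm38, the build of all positions here), a Fos protein without the activation domain of Fos, rose the most. It had 57.5 and 42.9 CPM in the DMEM samples and 972.5, 1088 and 822 CPM in the CM samples, a log2 fold change of 4.26 (SE 0.30, adjusted p = 6.5e-08). Every CM sample was far above both DMEM samples. Fos (ENSMUSG00000021250, chromosome 12 from 85473890 to 85477273), the founding member of its family, had 95.5 and 64.5 CPM in DMEM and 412, 518 and 389 CPM in CM. Its log2 fold change was 2.46 (SE 0.42, adjusted p = 1.9e-04). Fosl1 (ENSMUSG00000024912, chromosome 19 from 5447547 to 5455946), like Fosl2 a late member of the family, was low in DMEM. It had 0.532 and 0.327 CPM there and 5.06, 10.1 and 6.10 CPM in CM, a log2 fold change of 4.01 (SE 0.56, adjusted p = 2.9e-05). Fosb (ENSMUSG00000003545, chromosome 7 from 19302696 to 19310051), the closest relative of Fos, was near the limit of detection, with 5 counts in each DMEM sample. It had 0.148 and 0.204 CPM in DMEM and 1.72, 2.17 and 1.47 CPM in CM, a log2 fold change of 3.36 (SE 0.79, adjusted p = 0.0020). Fosl1 shares 1163 exonic bases with Ccdc85b on the opposite strand, and the counting used strand.

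Among the Jun genes, Junb rose and Jun did not pass the test. Junb (ENSMUSG00000052837, chromosome 8 from 84976910 to 84978718), a Jun protein with weaker activation than Jun, had 125 and 78.3 CPM in DMEM and 454, 547 and 427 CPM in CM, a log2 fold change of 2.23 (SE 0.25, adjusted p = 4.3e-06). Jund (ENSMUSG00000071076, chromosome 8 from 70698949 to 70700616), the Jun gene that most tissues express steadily, had 76.4 and 56.0 CPM in DMEM and 130, 107 and 100.1 CPM in CM. Its log2 fold change was 0.76 (SE 0.16, adjusted p = 9.2e-04), and 0.45 with scaling by total counts, which is below the fold threshold. Jun (ENSMUSG00000052684, chromosome 4 from 95049034 to 95052222), the founding Jun gene, had 85.5 and 91.8 CPM in DMEM and 97.8, 91.9 and 101.9 CPM in CM. Its log2 fold change of 0.13 (SE 0.16, adjusted p = 0.48) was smaller than its error, and it was -0.17 with scaling by total counts. Jund and Jun overlap genes on the opposite strand.

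Of the 10 genes, Atf3 alone was called lower in CM with edgeR. Atf3 (ENSMUSG00000026628, chromosome 1 from 191170296 to 191218039) encodes a stress-induced factor that represses inflammatory genes in macrophages. It had 269 and 288 CPM in DMEM and 158, 131 and 168 CPM in CM, a log2 fold change of -0.87 (SE 0.20, adjusted p = 0.0015). Batf (ENSMUSG00000034266, chromosome 12 from 85686669 to 85709087) moved the other way, from 7.23 and 5.52 CPM to 51.0, 41.5 and 59.6 CPM, a log2 fold change of 2.98 (SE 0.29, adjusted p = 1.2e-06). Batf3 (ENSMUSG00000026630, chromosome 1 from 191097847 to 191108945), known for its role in the development of cross-presenting dendritic cells, was low throughout. It had 0.738 and 0.695 CPM in DMEM and 1.39, 1.19 and 1.75 CPM in CM, a log2 fold change of 0.99 (SE 0.41, adjusted p = 0.047). The call of Batf3 was lost without any 1 of 11 libraries, with adjusted p-values from 0.051 to 0.15, under DESeq2 (adjusted p = 0.051), with scaling by total counts (0.68, adjusted p = 0.15) and with no filter on low counts (adjusted p = 0.0502).

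**Figure D1:**
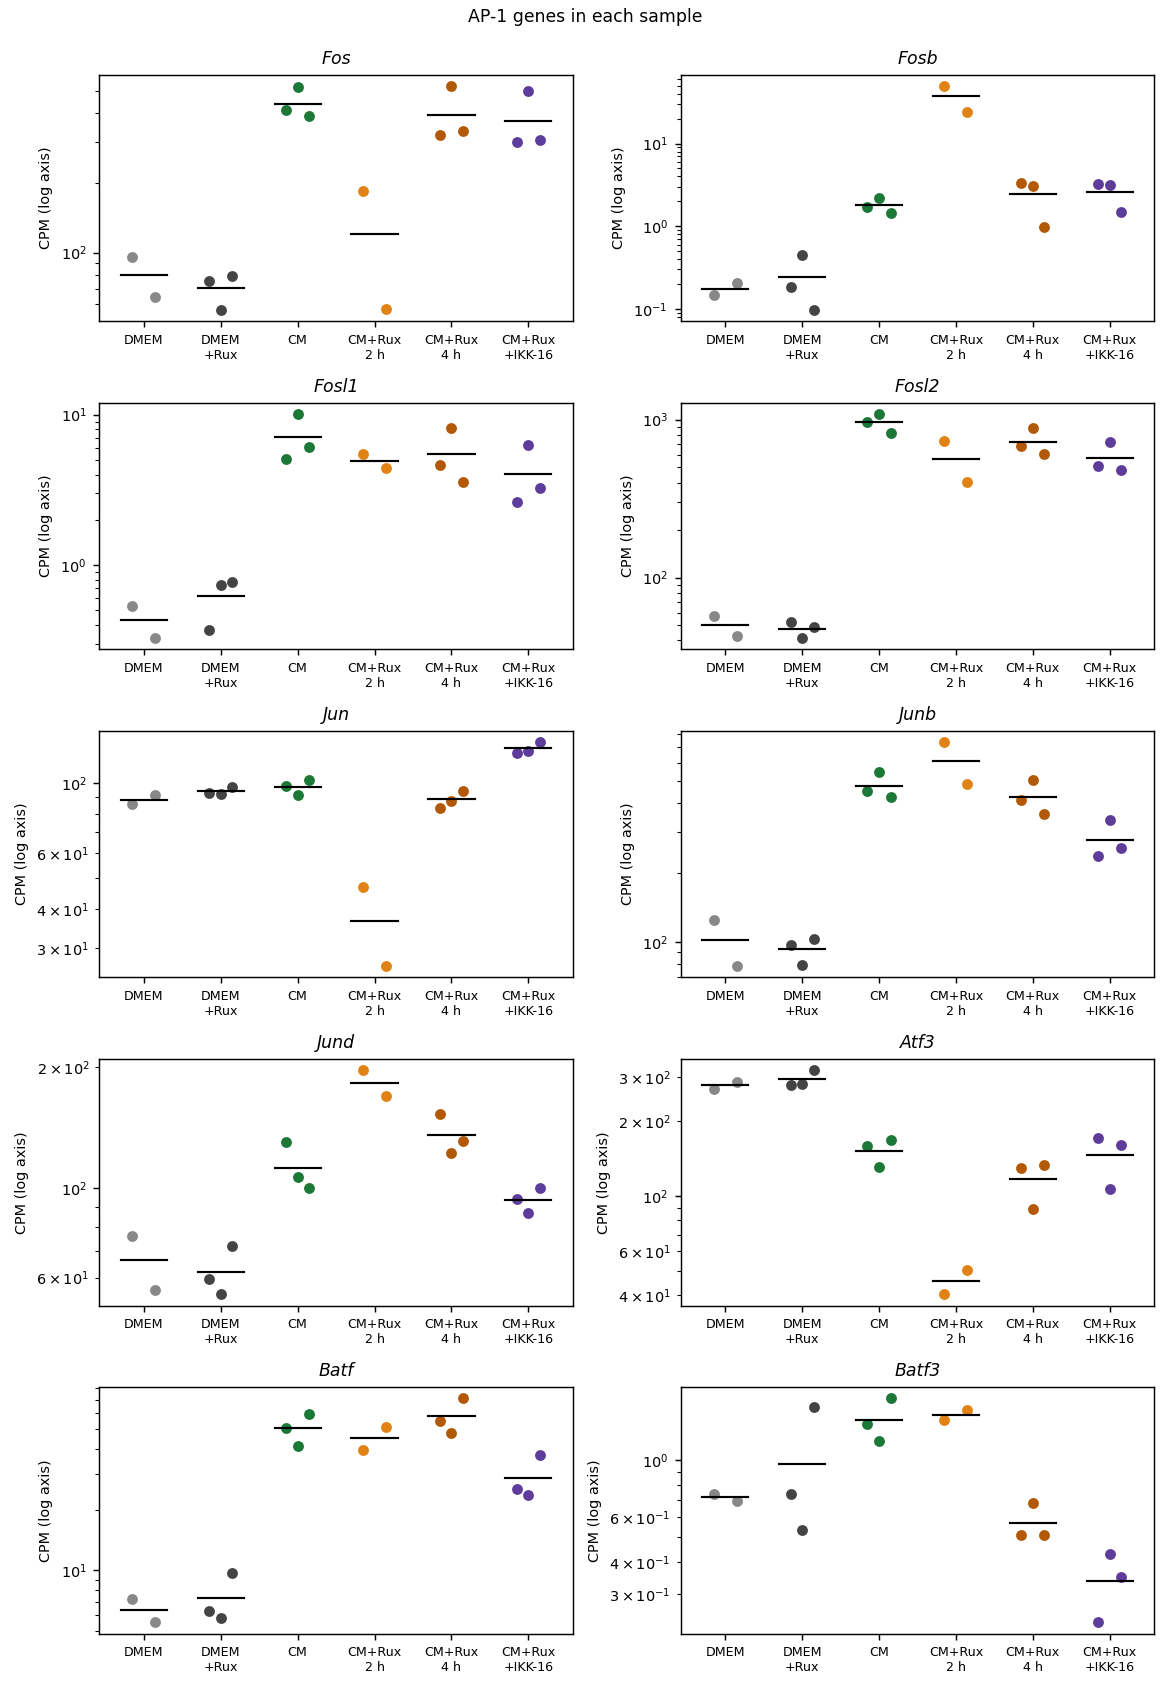
CPM of each AP-1 gene in each sample on log axes, with 1 panel per gene and 1 column per group. Points are samples coloured by group, and horizontal lines are group means. Fosb stands at 24.4 and 50.02 CPM in the samples labelled 2 h and at 3.37 CPM or below in every other sample, while Jun and Atf3 are lowest in the samples labelled 2 h.

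**Figure D2:**
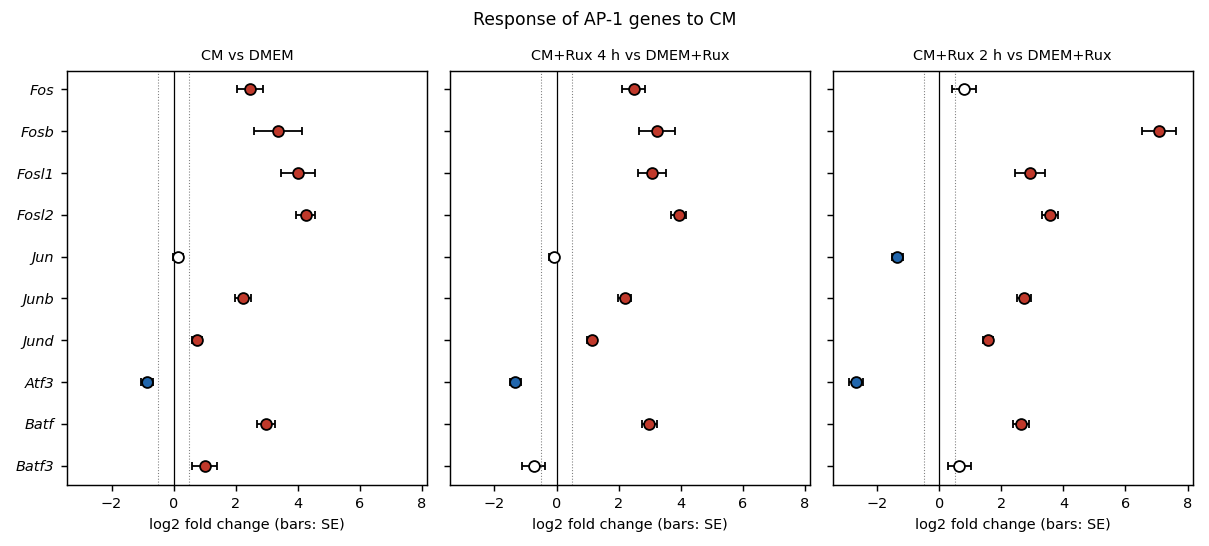
Log2 fold change (x axis, bars are SE) of each AP-1 gene in CM against DMEM and in the 2 Rux groups labelled 4 h and 2 h against DMEM + Rux, with filled points for genes called. Fos stands at 2.46, 2.49 and 0.79, and Fosb at 3.36, 3.24 and 7.09.

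The make-up of the family by message differed between media. Levels of different genes were set side by side as CPM per kilobase of exon. In DMEM, Atf3 held 43.5% of the summed level of the 10 genes, with a mean of 129 CPM per kb, followed by Junb (56.1), Jund (39.7), Fos (34.0) and Jun (27.8). In CM, Junb stood highest at 263 ± 34.8 CPM per kb (SD, n = 3), which was 34.7% of the sum, followed by Fos at 187 ± 29.2 and Fosl2 at 99.3 ± 13.8. Atf3 held 9.33% there. The sum of the 10 genes was 297 ± 30.3 CPM per kb (SD, n = 2) in DMEM and 758.5 ± 61.0 (SD, n = 3) in CM. The 4 Fos genes together went from 39.4 ± 10.5 to 289.9 ± 43.3 and the 3 Jun genes from 124 ± 25.4 to 361 ± 33.6, while Atf3, Batf and Batf3 together stood at 134 ± 5.54 in DMEM and 108 ± 15.6 in CM. Within the Fos genes, Fos held 86.1% ± 0.801 in DMEM and 64.4% ± 1.30 in CM. Within the Jun genes, Junb held 44.8% ± 5.48 in DMEM and 72.8% ± 3.43 in CM.

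**Figure D3:**
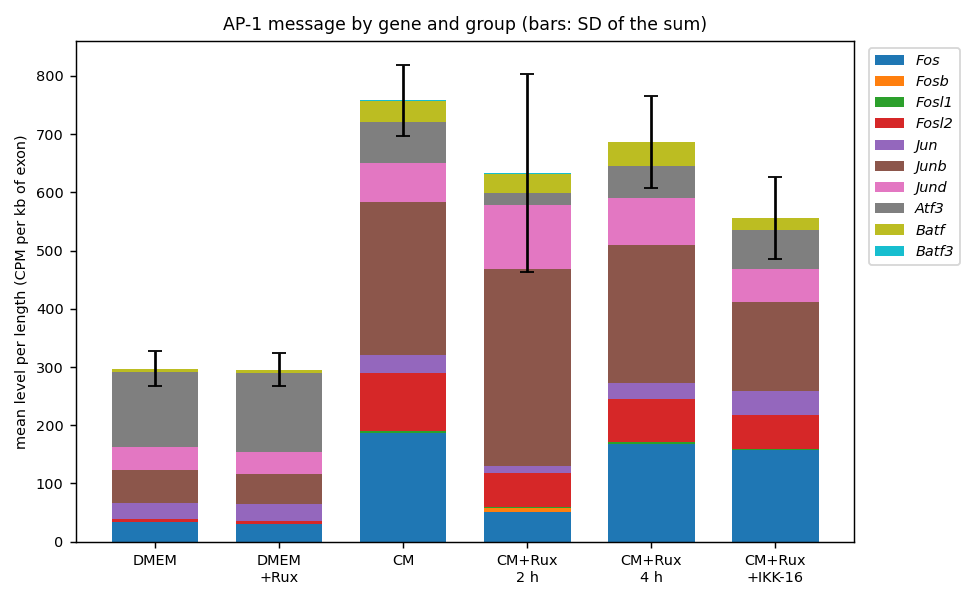
Mean level per length (CPM per kb of exon) of the 10 genes, stacked by gene for each group, with bars for the SD of the sum. The sum is 297 in DMEM, 295 in DMEM + Rux, 758.5 in CM, 633 and 687 in CM + Rux labelled 2 h and 4 h, and 556 with IKK-16. Atf3 takes the largest part in both DMEM groups, and Junb takes it in CM and in both CM + Rux groups.

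No member was called for ruxolitinib in CM. In CM + Rux (4 h) against CM, 0 of the 10 genes were called with edgeR, where 3.33% of all genes were. Of the 10, 1 had an unadjusted p under 0.05, and DESeq2 called that gene, Batf3. Batf3 had 1.39, 1.19 and 1.75 CPM in CM and 0.512, 0.678 and 0.508 CPM in CM + Rux, and its samples did not overlap, which was so in 19.2% of all genes. Its log2 fold change was -1.31 (SE 0.37, adjusted p = 0.059). With the replicate number as a block it was -1.24 and was called (adjusted p = 0.023), and it was also called without replicate 2 (adjusted p = 0.031) or replicate 3 (adjusted p = 0.010) of DMEM + Rux. Batf3 rests on 9 to 52 counts per sample.

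The other members overlapped between CM with and without Rux when samples were not paired. Atf3 had 129, 89.0 and 134 CPM with Rux and a log2 fold change of -0.38 (SE 0.18, adjusted p = 0.33). Fosl2 had 679, 890 and 604 CPM with Rux and a log2 fold change of -0.41 (SE 0.22, adjusted p = 0.43). Jund had 154, 122 and 132 CPM with Rux and a log2 fold change of 0.27 (SE 0.14, adjusted p = 0.39). Within the same replicate number, Atf3 and Fosl2 were lower and Jund higher with Rux in 3 of 3 pairs. With the replicate block their adjusted p-values were 0.047, 0.16 and 0.16, and with the block in a model of CM and CM + Rux (4 h) alone 8.1e-05, 1.2e-05 and 5.8e-04, at log2 fold changes of -0.40, -0.42 and 0.27, each below the fold threshold. The values of Fos (321, 525 and 335 CPM), Junb (414, 506 and 360 CPM), Batf (55.3, 47.9 and 71.4 CPM) and Jun (83.6, 87.8 and 94.6 CPM) differed from CM by log2 fold changes between -0.16 and 0.20, each smaller than its SE. Fosb had 3.37, 3.07 and 0.966 CPM and Fosl1 had 4.63, 8.15 and 3.56 CPM, with log2 fold changes of 0.52 (SE 0.44) and -0.37 (SE 0.36). In both genes replicate 3 was the lowest of the Rux samples. Jun, Junb and Fosl1 were also lower and Batf also higher with Rux in 3 of 3 pairs, while Fos and Fosb went both ways. The share of all genes with the same direction in 3 of 3 pairs was not computed, so these directions have no background. Over the alternatives (edgeR or DESeq2), adjusted p-values ran from 0.034 to 0.91 for Jun and from 0.0038 to 0.98 for Junb. Those of Batf ran from 0.0071 to 0.99 and those of Fosl1 from 0.051 to 0.99. The block in a model of the compared groups alone was added after seeing the data. The log2 fold changes of Jun, Junb and Batf stayed below the fold threshold in every alternative.

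Without tumor factors, 0 of the 10 genes were called in DMEM + Rux against DMEM with edgeR, 0 had an unadjusted p under 0.05 and DESeq2 called 0, where 0.97% of all genes were called. Fos had 75.2, 56.6 and 79.1 CPM with Rux, Junb had 96.8, 79.1 and 103 CPM, and Atf3 had 279, 282 and 320.2 CPM. These ranges overlapped those of DMEM. Jun, with 93.1, 92.5 and 97.4 CPM, was the 1 member without overlap, which was so in 18.5% of all genes. The log2 fold changes of the 10 genes lay between -0.19 for Fos (SE 0.39) and 0.64 for Fosb (SE 1.02), where Fosb had 4, 20 and 3 counts. For the difference between the effect of Rux in CM and in DMEM, 0 of the 10 genes were called with edgeR and 0 with DESeq2, where 0.412% of all genes were called with edgeR. In this interaction, 1 gene, Batf3, had an unadjusted p under 0.05, at a difference of -1.72 on the log2 scale (SE 0.55, adjusted p = 0.23).

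With IKK-16 on top of Rux, Jun was called higher and Jund and Batf lower. In CM + Rux + IKK-16 against CM + Rux (4 h), 1 member was called higher, where 4.07% of all genes were, and 2 were called lower, where 3.66% were. Jun had 125, 126 and 135 CPM with IKK-16, above all samples of the other groups, and a log2 fold change of 0.54 (SE 0.14, adjusted p = 0.019). Jund had 94.3, 86.9 and 100.4 CPM and a log2 fold change of -0.53 (SE 0.14, adjusted p = 0.020). Batf had 25.3, 23.6 and 37.4 CPM and a log2 fold change of -1.01 (SE 0.22, adjusted p = 0.0083). In each of these 3 genes every sample with IKK-16 lay on the same side of every CM + Rux (4 h) sample. Groups did not overlap in 5 of the 10 genes, beside 31.5% of all genes. Junb had 235, 338 and 256 CPM with IKK-16, also below every CM + Rux (4 h) sample, and a log2 fold change of -0.63 (SE 0.21, adjusted p = 0.057). With the replicate block Junb was called (log2 fold change of -0.62, adjusted p = 0.026), which made 4 members called. The fifth gene without overlap was Batf3, with 0.232, 0.428 and 0.349 CPM and a log2 fold change of -0.78 (SE 0.41, adjusted p = 0.23).

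Some of these calls rested on single libraries. Jun was not called without replicate 1 (log2 fold change of 0.49, adjusted p = 0.071) or replicate 2 (0.53, adjusted p = 0.055) of CM + Rux (4 h) or without replicate 3 of CM + Rux + IKK-16 (0.50, adjusted p = 0.063). Jund was not called without replicate 1 of CM + Rux (4 h) (-0.44, adjusted p = 0.083), without replicate 1 (-0.54, adjusted p = 0.063) or 2 (-0.48, adjusted p = 0.063) of CM + Rux + IKK-16, or with scaling by total counts (-0.45, adjusted p = 0.062). Junb was called without replicate 2 of CM + Rux + IKK-16 (-0.80, adjusted p = 0.031), without either sample labelled 2 h (adjusted p = 0.043 each) and without either DMEM sample (adjusted p = 0.037 each). Batf was called in each of these fits.

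The Fos genes showed no call for IKK-16 on top of Rux. Fos had 301, 500.1 and 307 CPM with IKK-16, and Fosl2 had 507, 724 and 480 CPM, with log2 fold changes of -0.09 (SE 0.34, adjusted p = 0.89) and -0.35 (SE 0.22, adjusted p = 0.33). Both ranges overlapped those of CM + Rux (4 h), and in both genes replicate 2 was the highest sample of CM, of CM + Rux (4 h) and of CM + Rux + IKK-16. Fosb was at 3.24, 3.12 and 1.48 CPM and Fosl1 at 2.63, 6.26 and 3.26 CPM. Atf3 had 172, 107 and 160 CPM with IKK-16 and a log2 fold change of 0.32 (SE 0.18, adjusted p = 0.25). Within the same replicate number, Fos, Fosl2 and Fosl1 were lower and Atf3 higher with IKK-16 in every pair, while Fosb went both ways. The share of all genes with the same direction in every pair was not computed here either. Over the alternatives (edgeR or DESeq2), adjusted p-values ran from 1.3e-04 to 0.70 for Fosl2 and from 1.8e-04 to 0.63 for Atf3. Those of Fosl1 ran from 0.027 to 0.97 and those of Fos from 0.14 to 0.999. The alternatives include the block in a model of the compared groups alone, which was added after seeing the data. None of these genes was called in any alternative.

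With both inhibitors against CM alone, 0 members were called higher, where 6.6% of all genes were, and 4 were called lower, where 6.13% were. The groups did not overlap in 5 members, beside 37.9% of all genes. The genes called were Batf3 (log2 fold change of -2.10, adjusted p = 0.0017), Batf (-0.82, adjusted p = 0.018), Junb (-0.79, adjusted p = 0.014) and Fosl2 (-0.75, adjusted p = 0.026). Fosl1 had a log2 fold change of -0.83 (SE 0.36, adjusted p = 0.12), and with the replicate block it was called (-0.84, adjusted p = 0.0072), as it was without replicate 2 of CM + Rux + IKK-16 (-1.29, adjusted p = 0.023). Jun was higher by 0.40 (SE 0.14, adjusted p = 0.0498), below the fold threshold, and it was called with scaling by total counts (0.51, adjusted p = 0.018). Without replicate 1 of CM + Rux + IKK-16, Batf3 was the only one of the 4 still called. Fosl2 also lost its call without replicate 1 or 2 of CM or replicate 3 of CM + Rux + IKK-16, with log2 fold changes of -0.64 to -0.75. Junb lost it without replicate 2 of CM (-0.67) or replicate 3 of CM + Rux + IKK-16 (-0.73), and Batf without replicate 3 of CM (-0.68) or replicate 2 of CM + Rux + IKK-16 (-0.69). The comparisons with and without IKK-16 share the CM and CM + Rux samples.

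**Figure D4:**
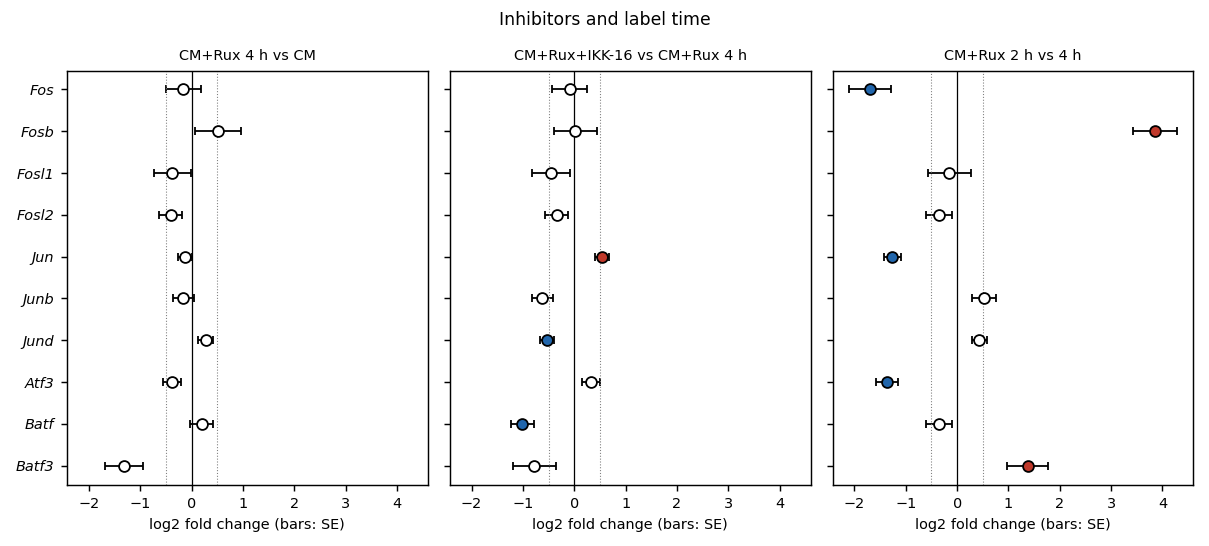
Log2 fold change (x axis, bars are SE) of each AP-1 gene for Rux in CM, for IKK-16 on top of Rux, and for the label 2 h against 4 h, with filled points for genes called. No point is filled for Rux alone, and the points of Fosb at 3.85 and Fos at -1.70 stand apart in the comparison of the labels.

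Under CM + Rux, Fosb and Batf3 were higher, and Fos, Jun and Atf3 lower, in the samples labelled 2 h than in those labelled 4 h. In this comparison, 2 of the 10 genes were called higher at 2 h, where 12.6% of all genes were, and 3 were called lower, where 10.7% were. The groups did not overlap in 6 members, beside 59.6% of all genes. The median log2 fold change of the 10 genes was -0.25, beside -0.03 over all genes.

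Fosb was higher at 2 h. It had 50.02 and 24.4 CPM in replicates 2 and 3 at 2 h, from 1813 and 418 counts, and 3.37, 3.07 and 0.966 CPM at 4 h, a log2 fold change of 3.85 (SE 0.43, adjusted p = 1.8e-05). The 2 h samples were above every sample of all other groups. Fos was lower at 2 h, with 184 and 57.1 CPM against 321, 525 and 335 CPM at 4 h, a log2 fold change of -1.70 (SE 0.41, adjusted p = 0.0048). The 2 h samples differed from each other, and replicate 3 at 2 h lay within the range of DMEM + Rux. Without replicate 2 of the 2 h group the log2 fold change of Fos was -2.79 (adjusted p = 4.3e-04) and that of Fosb 3.25 (adjusted p = 4.9e-04), and without replicate 3 that of Fos was -1.10 (adjusted p = 0.042). Per kilobase of exon Fosb remained below Fos at 2 h, at 5.96 ± 2.90 beside 51.2 ± 38.0 (SD, n = 2), and it held 5.15% ± 0.371 of the summed level of the Fos genes, beside 0.162% ± 0.0918 (SD, n = 3) at 4 h.

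Jun and Atf3 were lower at 2 h than in any other group. Jun had 46.9 and 26.3 CPM at 2 h, and its log2 fold change against 4 h was -1.26 (SE 0.16, adjusted p = 6.2e-05). Atf3 had 40.4 and 50.8 CPM at 2 h, and its log2 fold change was -1.37 (SE 0.21, adjusted p = 2.3e-04). For both genes every other sample of the series was higher. Junb and Jund lay higher at 2 h without being called. Junb had 739 and 487 CPM at 2 h, a log2 fold change of 0.52 (SE 0.23, adjusted p = 0.084), with overlap between the groups. Jund had 197 and 170 CPM at 2 h, above all other samples, and a log2 fold change of 0.43 (SE 0.15, adjusted p = 0.039), below the fold threshold. Junb was called without replicate 3 at 2 h (0.79, adjusted p = 0.039) or replicate 2 at 4 h (0.66, adjusted p = 0.0499), and Jund without replicate 1 at 4 h (0.53, adjusted p = 0.026). Junb made up 53.5% of the summed level per length of the 10 genes at 2 h.

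Batf3 was also called higher at 2 h, with 1.44 and 1.58 CPM against 0.512, 0.678 and 0.508 CPM at 4 h, a log2 fold change of 1.38 (SE 0.40, adjusted p = 0.015). It was not called without replicate 2 (adjusted p = 0.060) or replicate 3 (adjusted p = 0.064) of the 2 h group. The summed level of the 5 dendritic cell markers was 8.58 to 12.7 CPM at 2 h and 2.21 to 2.32 CPM at 4 h. Most of this sum was Zbtb46, at a mean of 10.1 and 1.89 CPM, and Siglech was at 0.480 and 0.177 CPM. The others were lower at 2 h and near 0, with means of 0.014 and 0.034 CPM for Xcr1, 0.028 and 0.082 CPM for Clec9a, and 0 and 0.069 CPM for Flt3. The part of these genes in the result was not tested. Batf had 39.5 and 51.6 CPM at 2 h (log2 fold change of -0.36, adjusted p = 0.28), Fosl2 had 728 and 405 CPM (-0.35, adjusted p = 0.28) and Fosl1 had 5.46 and 4.44 CPM (-0.15, adjusted p = 0.80). Fosl2 was called lower without replicate 2 at 2 h (-0.84, adjusted p = 0.038).

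Against DMEM + Rux, the group that shares the drug but not CM, most of the family rose under both labels. At 4 h, 7 members were called higher, where 22.3% of all genes were, and 1 was called lower, where 25% were. At 2 h, 6 were called higher, where 18.4% of all genes were, and 2 were called lower, where 21.7% were. The median log2 fold changes of the 10 genes were 2.34 at 4 h and 2.103 at 2 h. These comparisons share the DMEM + Rux samples. The labels give DMEM + Rux neither a time nor a dose of Rux. For the 2 h values, medium and time cannot be told apart. The groups did not overlap in 8 members in each comparison, beside 70% of all genes at 4 h and 70.8% at 2 h.

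Side by side against DMEM + Rux, Fosl2 had log2 fold changes of 3.93 at 4 h and 3.58 at 2 h, Fosl1 3.07 and 2.92, Junb 2.20 and 2.72, Batf 2.996 and 2.64, and Jund 1.13 and 1.56, all called. Fos was called at 4 h (2.49) and not at 2 h (0.79, SE 0.38, adjusted p = 0.093). At 2 h the value of Fos was -0.30 without replicate 2 and 1.39 without replicate 3, and in the latter case it was called (adjusted p = 0.0033). Fosb was called under both labels, at 3.24 and 7.09, and without replicate 2 of DMEM + Rux, which had 20 counts, the values were 4.23 and 8.09. Without replicate 2 of the 2 h group, the 2 h value of Fosb was 6.48. Jun was at -0.09 (SE 0.14, adjusted p = 0.58) at 4 h and was called lower at 2 h (-1.35). Atf3 was called lower under both labels, at -1.33 and -2.69. Batf3 was called under neither (-0.73, adjusted p = 0.098, and 0.65, adjusted p = 0.17), and it was called lower at 4 h without replicate 2 of DMEM + Rux (-1.07, adjusted p = 0.015) or with scaling by total counts (-1.03, adjusted p = 0.022) and higher at 2 h without its replicate 3 (1.27, adjusted p = 0.0041).

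Ordered by mean level over the 6 groups, most members split into the DMEM groups and the CM groups. Fosl2, Fosl1, Junb, Jund and Batf were lowest in the 2 DMEM groups, which overlapped each other. Their highest group was CM for Fosl2 (961 ± 134 CPM, SD, n = 3) and Fosl1 (7.09 ± 2.67), the 2 h group for Junb (613 ± 178, n = 2) and Jund (183 ± 19.3, n = 2), and CM + Rux (4 h) for Batf (58.2 ± 12.0, n = 3). Fos fell into a low set of DMEM + Rux, DMEM and the 2 h group and a high set of the other 3 CM groups, with overlap between neighbours within each set. Atf3 ran the other way, with 294 ± 23.0 CPM in DMEM + Rux (n = 3) at the top and 45.6 ± 7.35 in the 2 h group (n = 2) at the bottom. The ratio of the highest to the lowest group mean was 211 for Fosb, 20.2 for Fosl2, 16.5 for Fosl1, 9.12 for Batf, 6.59 for Junb, 6.44 for Atf3, 6.25 for Fos, 4.47 for Batf3, 3.51 for Jun and 2.96 for Jund. For Fos, Fosl1 and Fosl2, 4 of the 5 neighbouring pairs of groups in this order overlapped, and 3 of 5 did for each of the other members.

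Across the 16 samples, which share the 6 groups and their libraries, the members were set against all other genes tested by the Pearson correlation of log2(CPM + 1). The nearest genes were Snx18 and Nfil3 for Fosl2 (r = 0.997 for both), Srsf1 and Yrdc for Batf (0.993 and 0.990), Dusp1 and Samd4b for Junb (both 0.991), Lrrc32 and Myl12a for Fosl1 (both 0.983) and Sh3bp4 and Pak4 for Jund (0.980 and 0.972). Dusp1, a phosphatase of MAP kinases, and Nfil3, a leucine zipper repressor, are themselves on the lists described next. For Fosb the nearest were Dot1l and Slc35e4 (0.975 and 0.969), for Fos Gtf2e2 and Acvrl1 (both 0.973), for Atf3 Cabin1 and Kat14 (0.972 and 0.971) and for Jun Fyco1 and 2810006K23Rik (0.961 and 0.958). Batf3 had the weakest neighbours, Galm and Sys1 (0.833 and 0.803). Among the members, the highest value was between Fosl1 and Fosl2 (0.960), while Fos and Fosb stood at 0.147 and Fosb and Jun at -0.70.

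Another 12 leucine zipper genes were listed as relatives of AP-1. Of these, 4 were called higher and 0 lower in CM against DMEM with edgeR, beside 20.9% and 24.1% of all genes. Maff, a small Maf protein without an activation domain, rose the most. It had 2.56 ± 1.14 CPM in DMEM (SD, n = 2) and 57.7 ± 9.37 CPM in CM (SD, n = 3), which is 4.46 on the log2 scale (adjusted p = 1.5e-07). With Rux in CM, 1 was called higher and 1 lower, where 3.33% of all genes were called. Jdp2, a repressor that pairs with Jun, had 197 ± 50.5 CPM in CM and 411 ± 134 CPM in CM + Rux (4 h), a log2 fold change of 1.06 (adjusted p = 0.031), and Batf2, the third BATF gene, had a log2 fold change of -0.77 (adjusted p = 0.038). With IKK-16 on top of Rux, Jdp2 was called lower (-0.93, adjusted p = 0.027), at 216 ± 75.9 CPM, and Mafk higher (0.65, adjusted p = 6.6e-04), where 3.66% of all genes were called lower and 4.07% higher. Against CM, both inhibitors together left 3 of the 12 called lower (6.13% of all genes), led by Batf2 (-1.17, adjusted p = 8.5e-04). At 2 h against 4 h, 2 were called lower (10.7% of all genes). The call of Jdp2 for Rux in CM was lost without replicate 1 or 3 of CM or replicate 1 or 2 of CM + Rux (4 h), and that of Batf2 without replicate 1 or 2 of CM, any sample of CM + Rux (4 h) or replicate 1 of DMEM + Rux. In a model of the compared groups alone neither was called (adjusted p = 0.077 and 0.065), nor was Jdp2 for IKK-16 (adjusted p = 0.094). Over the alternatives Jdp2 lay between 0.76 and 1.28 and Batf2 between -0.90 and -0.69. The call of Jdp2 for IKK-16 was lost without replicate 2 of CM + Rux (4 h) or replicate 1 or 3 of CM + Rux + IKK-16, between -1.23 and -0.63.

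Of 21 kinases and SRF cofactors upstream of AP-1, 9 were called higher and 3 lower in CM, beside 20.9% and 24.1% of all genes. Elk3, a cofactor of SRF, rose by 1.90 on the log2 scale (adjusted p = 2.6e-05), and Mapk14, the p38 kinase, had a log2 fold change of -1.21 (adjusted p = 5.4e-08). Map3k5, a kinase upstream of JNK and p38, had 23.8 ± 0.780 CPM in DMEM and 26.3 ± 3.68 in CM. It stood at 47.8 ± 1.72 CPM in CM + Rux (4 h), 126 ± 14.0 CPM in the 2 h group and 22.0 ± 3.48 CPM with IKK-16. It was called higher with Rux in CM (0.86, adjusted p = 9.2e-04), lower with IKK-16 on top of Rux (-1.12, adjusted p = 1.3e-04) and higher at 2 h than at 4 h (1.40, adjusted p = 3.6e-06). Map3k8, a kinase upstream of ERK, was called lower with Rux in CM (-0.64, adjusted p = 0.015), and not without replicate 2 of CM or replicate 1 or 3 of CM + Rux (4 h), or in a model of the compared groups alone (adjusted p = 0.055). Of the 21, 2 were called for Rux in CM, where 3.33% of all genes were, and 4 with the replicate block, where 6.02% were. At 2 h against 4 h, 2 of the 21 were called higher and 5 lower, beside 12.6% and 10.7% of all genes. With IKK-16 on top of Rux, 1 of the 21 was called, Map3k5, beside 3.66% of all genes called lower, and against CM both inhibitors gave 1 higher (6.6% of all genes) and 2 lower (6.13%), with Map3k8 the lowest (-1.10, adjusted p = 1.1e-04).

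Of 7 genes for partners of AP-1 at composite sites, 3 were called higher and 1 lower in CM, beside 20.9% and 24.1% of all genes, with Ets2 at 2.17 (adjusted p = 1.4e-06) and Nfatc2 at -1.61 (adjusted p = 1.4e-04). Irf8, the partner of the BATF proteins, had 282 ± 15.2 CPM in CM and 151 ± 20.0 CPM in CM + Rux (4 h) (SD, n = 3 each), which is -0.90 on the log2 scale (adjusted p = 1.2e-04), and was the only gene of this list called there (1 of 7 beside 3.33% of all genes, and 2 of 7 beside 6.02% with the replicate block). With both inhibitors against CM, Irf8 was again the only one called (-1.22, adjusted p = 3.5e-06), where 6.13% of all genes were called lower. At 2 h against 4 h, 3 were called higher (12.6% of all genes), led by Nfatc2 (2.28, adjusted p = 2.6e-05), which had 96.5 ± 23.0 CPM at 2 h (SD, n = 2) and 19.9 ± 3.47 CPM at 4 h (SD, n = 3).

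Of 24 genes that textbooks name as AP-1 targets, 23 were tested, and 18 were called higher and 1 lower in CM against DMEM, beside 20.9% and 24.1% of all genes. Their median log2 fold change was 2.13. Il6, the interleukin, had no counts in DMEM and 219 ± 111 CPM in CM (SD, n = 3), and so was at least 1782-fold higher, against a limit of 3 counts in each DMEM sample. Ccnd1, the cyclin of early G1, was the gene called lower (-3.22, adjusted p = 4.0e-05). Rux in CM gave 0 higher and 1 lower, Timp1, an inhibitor of matrix proteases (-1.98, adjusted p = 0.011), beside 3.33% of all genes called, and 5 were called with the replicate block, beside 6.02%. Timp1 was not called without replicate 2 of CM or replicate 1 or 3 of CM + Rux (4 h). IKK-16 on top of Rux gave 1 higher and 8 lower, beside 4.07% and 3.66% of all genes, with a median log2 fold change of -0.57 over the 23. Mmp10, a matrix protease, went from 0.804 ± 0.194 to 0.103 ± 0.0390 CPM (SD, n = 3 each), a log2 fold change of -2.93 (adjusted p = 1.9e-04), and Ccnd1 was called higher (2.08, adjusted p = 0.0073). Without replicate 1 of CM + Rux + IKK-16, 5 of the 23 were called. Both inhibitors against CM gave 3 higher and 11 lower, beside 6.6% and 6.13% of all genes, with Mmp10 the lowest (-3.66, adjusted p = 9.6e-06) and Ccnd1 the highest (1.45, adjusted p = 0.027). Ccnd1 was not called there without replicate 1 or 3 of CM or replicate 2 (0.83) or 3 of CM + Rux + IKK-16, or in a model of the compared groups alone (adjusted p = 0.095), and for IKK-16 on top of Rux it was at 1.47 without replicate 2 of CM + Rux + IKK-16. Without replicate 3 of CM + Rux + IKK-16, 9 of the 23 were called for both inhibitors. At 2 h against 4 h, 3 were called higher and 7 lower, beside 12.6% and 10.7% of all genes, from Ccnd1 at 2.61 (adjusted p = 8.2e-04) to Il6 at -2.87 (adjusted p = 0.0028), and 6 or 5 genes were called without replicate 2 or 3 of the 2 h group. In DMEM + Rux against DMEM, 0 genes of any of these 4 lists were called with edgeR, where 0.97% of all genes were.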

How the data were processed

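BMDM RNA was sequenced from stranded libraries in 16 samples. The authors trimmed reads with Trimmomatic 0.33, aligned them to GRCm38 with HISAT2 2.1.0 and counted fragments per gene with featureCounts 1.6.2, by strand, and deposited whole-number counts of 55487 genes without scaling. Symbols were found for 55141 identifiers, and the other 346 took up to 0.0459% of a sample's counts. Groups and replicate numbers were taken from the labels.

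The 12372 genes that passed 1 CPM in 2 or more samples were scaled by RLE and tested in 1 model of 6 groups with edgeR 4.0.16 (quasi-likelihood test, R 4.3.3, limma 3.58.1), with Benjamini-Hochberg adjustment over all genes tested. These are the scaling, filter and thresholds of the study's methods. Standard errors are the absolute log2 fold change over the square root of F. Steps were tested on simulated data. The members and lists were chosen with earlier results of these data known. All 10 members are named throughout, with the 2 genes most correlated with each (mean of 1 CPM or more) and, per list and comparison, the called genes with the highest and the lowest fold change, of which some are not reported here.

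Same-numbered samples deviated together, with correlations over 0.1 in 34 of 35 pairs (median 0.38, beside -0.12 for 71 pairs of different numbers). In the comparisons with 3 shared numbers every pair was over 0.1, so there the numbers were taken as pairs, from the data and not from the labels. Alternatives were other scalings and filters, the replicate block, a model restricted to the compared groups, DESeq2 1.42.0, other thresholds, and each sample left out in turn. The block in a model restricted to the compared groups was added after seeing the data. Counts give a precision set by depth, from 18449388 to 46215853 fragments per sample.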

Additional observations from a re-analysis of the deposited data

Results flagged for a closer look

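No AP-1 gene was called for the difference between the effect of Rux in CM and in DMEM, but 2 genes of the lists around it were, by a test of that difference (edgeR). Map3k5 had a difference of 1.015 on the log2 scale (SE 0.18, adjusted p = 0.030), with 26.3 ± 3.68 CPM in CM and 47.8 ± 1.72 CPM in CM + Rux (4 h), beside 23.8 ± 0.780 CPM in DMEM and 21.4 ± 2.03 CPM in DMEM + Rux. Its call was lost when any 1 of 9 libraries was left out (adjusted p up to 0.13). Irf8 had a difference of -0.97 (SE 0.14, adjusted p = 0.012), with 282 ± 15.2 and 151 ± 20.0 CPM in CM without and with Rux, beside 191 ± 5.51 and 201 ± 4.01 CPM in DMEM. It was not called without replicate 1 of DMEM (adjusted p = 0.069).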

How the results depend on the processing

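Over 24 alternatives, 2035 values of the members kept their direction and their side of the thresholds, 36 lost a call, 34 gained one and 45 changed sign. Of those that changed sign, 0 were called before or after. The main count of 0 members for Rux in CM became 1 (Batf3, lower) with no filter on low counts, with the replicate block, with only the groups compared, with both of these together, with DESeq2 and at an adjusted p under 0.1, and lay between 0 and 1 with each sample left out. Left out in turn, samples gave 1 to 4 members for IKK-16 on top of Rux and 1 to 4 for both inhibitors against CM, and a log2 fold change beyond 1 left 1 in each. The cause was not tested. With scaling by total counts, Jun in CM against DMEM was -0.175 and Atf3 for both inhibitors against CM 0.0515. The pairing by replicate number could not be judged where groups share only 2 numbers. With that block, Batf3 in CM against DMEM was not called (0.80, adjusted p = 0.072), Jund at 2 h against 4 h was (0.51, adjusted p = 0.0051), Fosl2 and Atf3 in DMEM + Rux against DMEM were 0.0280 and -0.0068, and Fos in the interaction was -0.107. With the block and only the groups compared, Junb at 2 h against 4 h was also called (0.52, adjusted p = 0.0010), Batf in DMEM + Rux was -0.0618 and Fos in the interaction -0.0076. Beside these and the calls given in the report (Batf3, Junb, Fosl1), the block changed no call of a member.

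With each sample left out, these values lay on both sides of 0. For IKK-16 on top of Rux they were -0.372 to 0.169 for Fos and -0.298 to 0.2985 for Fosb, and for both inhibitors against CM -0.188 to 0.125 for Atf3. For Rux in DMEM they were -0.442 to 0.121 for Fos, -0.3525 to 1.015 for Fosb, -0.277 to 0.144 for Fosl2, -0.424 to 0.245 for Junb, -0.2997 to 0.1445 for Jund, -0.0868 to 0.395 for Batf and -0.215 to 0.746 for Batf3. For the interaction they were -0.282 to 0.281 for Fos, -0.4997 to 0.868 for Fosb, -0.404 to 0.266 for Junb and -0.1998 to 0.282 for Batf. For 2 h against 4 h they were -0.360 to 0.268 for Fosl1 and -0.843 to 0.0060 for Fosl2, and for 2 h against DMEM + Rux -0.302 to 1.386 for Fos. Over all genes, 412 were called for Rux in CM (745 with the block, 685 with no filter, 863 with the block and only the groups compared, 243 without replicate 1 of CM + Rux (4 h), 258 without replicate 2 of CM), and 51 in the interaction (444 with the block, 349 with no filter, 234 with DESeq2, 90 with total counts, 17 to 114 with each sample left out). Fosb and Batf3 are limited by depth, with 3 to 20 counts per DMEM sample for Fosb.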
